A study of Mus musculus with 9 samples.

Results

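The long intergenic noncoding RNAs (lincRNAs) that were expressed in the juvenile mouse ovary were followed over postnatal day (PD) 14, PD15 and PD16. The members were chosen by biotype and level: the row had to carry the lincRNA biotype in the deposited tables and a mean over the 9 libraries above 2 FPKM (fragments per kilobase of transcript, scaled to the depth of the library). H19, Meg3, Rian, Mirg, Airn and Kcnq1ot1 were left out by name, and only H19 of these had passed the level. The rule kept 164 of 4549 lincRNA rows, out of 52025 rows in all. Of the remaining lincRNA rows, 1786 were at 0 in every library.

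The animals were untreated Kunming mice, an outbred stock, and no allele or agent is given in the labels. The groups were PD14, PD15 and PD16, with 3 libraries each. The study chose these days because the antrum, the fluid-filled space of the follicle, first forms then. Granulosa cells are entered as the source in the labels and ovary as the tissue, whereas the study's methods describe whole ovaries, and the libraries held markers of several cell types. All 12 oocyte markers, Zp3 and Nlrp5 among them, were above 0 in every library, and their summed level was 1260 to 1860 FPKM. The 10 granulosa markers summed to 2670 to 3530 FPKM, and 9 theca and interstitial markers to 1330 to 2450 FPKM. In such bulk RNA, fewer cells of a type and less RNA per cell cannot be told apart.

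LincRNAs are transcribed from their own loci between coding genes, and most are capped, spliced and polyadenylated like mRNAs but carry no long open reading frame. Some are retained in the nucleus, such as Malat1 in nuclear speckles and Neat1, the scaffold of paraspeckles. Xist coats the inactive X chromosome in female cells. Others serve mainly as hosts that are processed into miRNAs or small nucleolar RNAs (snoRNAs), and for many members no function is known.

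Of the 160 members found by identifier in GENCODE M21, 144 are typed as lincRNA there, and the others carry another type. Among the same 160, 13 (8.12%) carried an annotated miRNA, snoRNA or small Cajal body RNA. The same was true of 2.02% of the other lincRNA rows above 0 in any library and of 0.9% of the rows at 0. The sequences of the hosted RNAs are shown because they are the known products of these otherwise poorly described transcripts. A further reason is that Gm2044, the host with the highest mean over the 9 libraries, was among the lincRNAs that changed. At PD16 its mean of 42.3 FPKM was below that of Epb41l4aos, a snoRNA host (57.6 FPKM). Gm2044 lies at chr7:139957005-139958039 on the minus strand (mm10), and Mir202 and Mir7686 lie in its annotated exons. The Mir202 hairpin (RefSeq, GRCm38.p6, chr7:139957689-139957760, minus strand) is given with both mature arms in capitals.
Mir202: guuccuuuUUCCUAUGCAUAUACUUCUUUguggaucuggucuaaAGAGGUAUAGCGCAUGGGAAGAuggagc

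The mature miRNAs of the hosts are given 5′ to 3′ with the seed, bases 2 to 8, in capitals. miR-202 is known mainly from gonads. The let-7 miRNAs lie in 6720427I07Rik at chr13:48532905-48546500 on the minus strand. The seed of miR-202-3p equalled the shared seed of these let-7 arms at 6 of 7 positions and differed at position 8.
mmu-miR-202-5p: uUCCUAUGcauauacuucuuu
mmu-miR-202-3p: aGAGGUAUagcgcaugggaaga
mmu-let-7a-5p: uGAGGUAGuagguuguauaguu
mmu-let-7f-5p: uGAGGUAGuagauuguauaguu
mmu-let-7d-5p: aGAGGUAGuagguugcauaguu

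Mir17hg, at chr14:115042879-115046727 on the plus strand, is the primary transcript of the miR-17-92 cluster, which is known for promoting cell proliferation. Its hosted miRNAs fall into seed groups. miR-17-5p and miR-20a-5p share a seed, and so do miR-19a-3p and miR-19b-3p.
mmu-miR-17-5p: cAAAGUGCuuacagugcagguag
mmu-miR-20a-5p: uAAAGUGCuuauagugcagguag
mmu-miR-18a-5p: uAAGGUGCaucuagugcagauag
mmu-miR-19a-3p: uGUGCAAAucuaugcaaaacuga
mmu-miR-19b-3p: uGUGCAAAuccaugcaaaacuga
mmu-miR-92a-3p: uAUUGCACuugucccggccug

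A further pair of hosts each held a single well known miRNA. E130102H24Rik (chr4:101346531-101356735, minus strand) carries Mir101a, and Gm27028 (chr1:23291537-23291935, plus strand) carries Mir30c-2.
mmu-miR-101a-3p: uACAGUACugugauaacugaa
mmu-miR-30c-5p: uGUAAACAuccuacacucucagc

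Box C/D snoRNAs guide methylation of ribosomal RNA. Those of Snhg18 and Snhg6 are shown as DNA letters from GENCODE M21. A match to TGATGA near the 5′ end and to CTGA near the 3′ end, the core letters of boxes C and D, is in capitals. Snord93 of 2700038G22Rik, not shown, had a match to CTGA but none to TGATGA. Snord123 is at chr15:32241853-32241923 and Snord87 at chr1:9942463-9942549, both on the minus strand.
Snord123: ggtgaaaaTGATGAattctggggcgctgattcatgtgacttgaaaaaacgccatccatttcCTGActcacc
Snord87: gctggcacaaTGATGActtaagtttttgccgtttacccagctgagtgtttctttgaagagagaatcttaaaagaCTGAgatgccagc

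A few abundant RNAs made up much of the members' summed level, and most of the 164 lincRNAs were low. Only 12 members had a mean above 20 FPKM, 30 were above 10, 57 were above 5 and 107 lay between 2 and 5. The 4 most abundant made up 22.4 to 28.1% of the members' FPKM in a library, and the 10 most abundant 38.9 to 45%. Together the members held 0.387 to 0.478% of all FPKM. Just inside the threshold were 1700086O06Rik (2.02), Gm43269 (2.01) and 2310069G16Rik (2.01), and just outside were 4933404O12Rik (1.99), Gm11261 (1.98) and 4932422M17Rik (1.97).

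**Figure D1:**
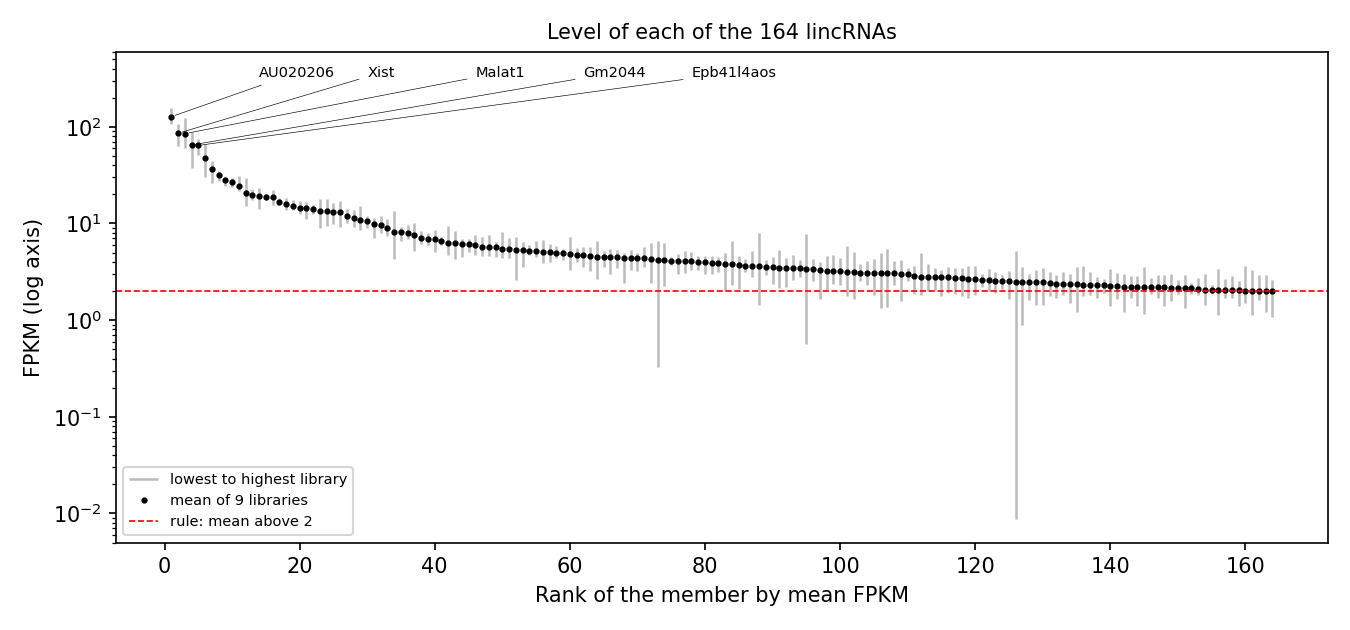
FPKM of each lincRNA on a log axis against its rank by mean, where points are means of 9 libraries and bars run from the lowest to the highest library. The level falls from 127 FPKM for AU020206 to the threshold of 2 FPKM, and a few bars of low members reach far below the others.

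AU020206 was the most abundant, with 155, 139 and 153 FPKM at PD14, 115, 143 and 107 at PD15, and 108, 107 and 114 at PD16. The PD14 and PD16 libraries did not overlap, but the difference did not pass the threshold (log2 change -0.43, SE 0.10, adjusted p = 0.0516). Xist followed with a mean of 85.5 FPKM and Malat1 with 84.8 FPKM. Gm2044 (64.7 FPKM) and Epb41l4aos (64.1 FPKM), a snoRNA host, came next. After RP24-337D17.1 (47.5 FPKM) and Gm45889 (36.7 FPKM) the next members were Snhg18 (31.7 FPKM), 1810058I24Rik (28.2 FPKM), which RefSeq lists as coding, and 1700020I14Rik (26.9 FPKM), for which RefSeq gives the synonym Oip5os1. Xist and Malat1 overlapped in their ranges over the libraries, as did Gm2044 and Epb41l4aos.

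The libraries were of similar depth, with 20.1 to 28.6 M fragments estimated from the smallest FPKM steps, and 140 to 153 members were above 2 FPKM in each. The median fragment count of a member over its libraries ran from 20 to 36343, with a median of 155 over members. Summed over members, the level was 1428 ± 9.0 FPKM at PD14, 1467 ± 33.1 at PD15 and 1346 ± 87.5 at PD16 (mean ± SD, n = 3). PD16 replicate 3 stood apart from the other PD16 libraries with a sum of 1445 FPKM against 1309 and 1282. That library was the highest of its day in 77 of 164 members (47%), compared with 34.5% of all genes tested.

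Between PD14 and PD15, 1 of 164 members passed the adjusted threshold of 0.05, and 0.678% of all 15495 genes tested did (0.336% in the higher direction). It was Gm11827, a lincRNA of no known function at chr4:11122805-11126998 on the plus strand. Its levels were 2.92, 2.78 and 3.37 FPKM at PD14, 4.39, 5.13 and 4.33 at PD15, and 3.10, 3.16 and 3.28 at PD16. All 3 PD15 libraries lay above the other 6. Gm11827 was higher at PD15 by 0.48 on the log2(FPKM + 1) scale (SE 0.08, adjusted p = 0.0397), and the later difference, from PD15 to PD16, missed the threshold at -0.42 (adjusted p = 0.0558). The call was lost when any of the 9 libraries was left out, with adjusted p from 0.059 to 0.132, and kept in 6 of 10 other settings (up to 0.114). Its nearest coding gene, Trp53inp1, at 29433 bases, had means of 18.3, 16.8 and 16.3 FPKM on the 3 days.

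Between PD14 and PD16, 4 members passed, 1 higher and 3 lower, where 4.25% of all genes tested passed (2.36% higher and 1.89% lower). The median change of the members was -0.01, against 0.01 over all genes tested. Those lower at PD16 were Gm2044, Gm45889 and 6330403K07Rik, and the higher one was Gm12065.

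Gm2044, the host of miR-202, had 65.8, 78.7 and 88.0 FPKM at PD14, 85.3, 60.1 and 77.4 at PD15, and 43.1, 46.7 and 37.0 at PD16. Every PD16 library lay below all PD14 and PD15 libraries, which overlapped each other. The level fell by 0.86 on the log2 scale from PD14 to PD16 (SE 0.15, adjusted p = 0.0209). From PD15 to PD16 the difference of -0.79 missed the threshold (adjusted p = 0.0526). An exact permutation test of the 3 days over all 280 groupings of the libraries gave p = 0.0214, unadjusted. The PD14 to PD16 call was lost without PD14 replicate 3 or without PD16 replicate 1, with adjusted p up to 0.0794, and kept in 8 of 10 other settings (up to 0.0616). The Mir202 row itself was listed at 0 in all 9 libraries, so the level of miR-202 is not given by these data. Utf1, the nearest coding gene at 11893 bases, was too low to be tested, with means of 0.297, 0.327 and 0.184 FPKM.

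Gm45889, at chr7:142283210-142290418 on the plus strand, had 42.2, 44.4 and 39.7 FPKM at PD14 and 40.5, 41.4 and 35.8 at PD15. At PD16 it had 26.1, 30.0 and 30.0 FPKM, below every earlier library. It fell by 0.54 from PD14 to PD16 (SE 0.08, adjusted p = 0.0132) and by 0.44 from PD15 to PD16 (adjusted p = 0.0484). The first of these calls was kept with each library left out in turn, with adjusted p from 0.016 to 0.0497, and under each of 10 other settings. Of the 9 runs without 1 library, the PD15 to PD16 call was kept in 1, without PD15 replicate 3, and it was kept in 5 of the 10 other settings (adjusted p up to 0.125). Exact permutation over the 3 days gave p = 0.0143, unadjusted. Its nearest coding gene, Krtap5-1, a hair keratin-associated protein gene, was near 0 throughout.

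6330403K07Rik carries the lincRNA biotype in the deposited tables, while GENCODE M21 and RefSeq list it as coding. It lies at chr11:71031941-71033513 on the minus strand. The levels were 13.6, 16.7 and 17.8 FPKM at PD14, 13.4, 13.3 and 14.0 at PD15, and 10.8, 9.05 and 11.6 at PD16. The PD16 libraries were the lowest and did not overlap those of either earlier day. It fell by 0.57 from PD14 to PD16 (SE 0.11, adjusted p = 0.0253), and the call was lost without PD14 replicate 2 or 3 or PD16 replicate 1 or 2 (adjusted p up to 0.0919). It was kept in 8 of 10 other settings (up to 0.0705).

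Gm12065, at chr11:24198737-24202624 on the minus strand, was the member that rose. It had 15.7, 17.7 and 15.2 FPKM at PD14, 20.5, 20.9 and 19.8 at PD15, and 29.6, 21 and 26.5 at PD16. The 3 days did not overlap and followed in order, and exact permutation gave the smallest p that 280 groupings allow, 0.00357, unadjusted. The permutation used the same libraries as limma and is not separate support for the call. The increase from PD14 to PD16 was 0.62 on the log2 scale (SE 0.11, adjusted p = 0.0224). It missed the threshold without PD14 replicate 1 or 3 or PD16 replicate 1 or 3 (adjusted p up to 0.086), and passed in 7 of 10 other settings (up to 0.0629). Bcl11a, a transcription factor gene 24614 bases away, had means of 2.97, 3.40 and 3.83 FPKM, and its difference from PD14 to PD16 of 0.29 did not pass (adjusted p = 0.0983).

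Between PD15 and PD16, 2 members passed, both lower, Gm45889 and RP24-337D17.1, where 0.729% of all genes tested passed (0.297% lower). RP24-337D17.1, named Gm35533 in GENCODE M21, lies at chr10:100129868-100144126 on the minus strand. It had 56.2, 45.6 and 34.4 FPKM at PD14, 66.9, 59.7 and 63.7 at PD15, and 35.6, 30.0 and 35.6 at PD16. The PD15 libraries were above all others, and PD14 and PD16 overlapped. It fell by 0.89 from PD15 to PD16 (SE 0.15, adjusted p = 0.0427), and the exact permutation p over the days was 0.0107, unadjusted. The call was kept without PD14 replicate 1 or 3 and lost without any of the other 7 libraries (adjusted p up to 0.139). It was kept in 7 of 10 other settings (up to 0.125).

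The nearest coding gene of RP24-337D17.1, at 29452 bases, was Kitl, the ligand made by granulosa cells for the Kit receptor of oocytes. Kitl had 61.0, 53.5 and 52.1 FPKM at PD14, 45.9, 47.9 and 60.8 at PD15, and 40.8, 42.0 and 33.9 at PD16. The PD16 libraries were again the lowest, but Kitl was not highest at PD15. From PD14 to PD16 its change was -0.505 (adjusted p = 0.0494), and from PD15 to PD16 it was -0.39 (adjusted p = 0.174).

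**Figure D2:**
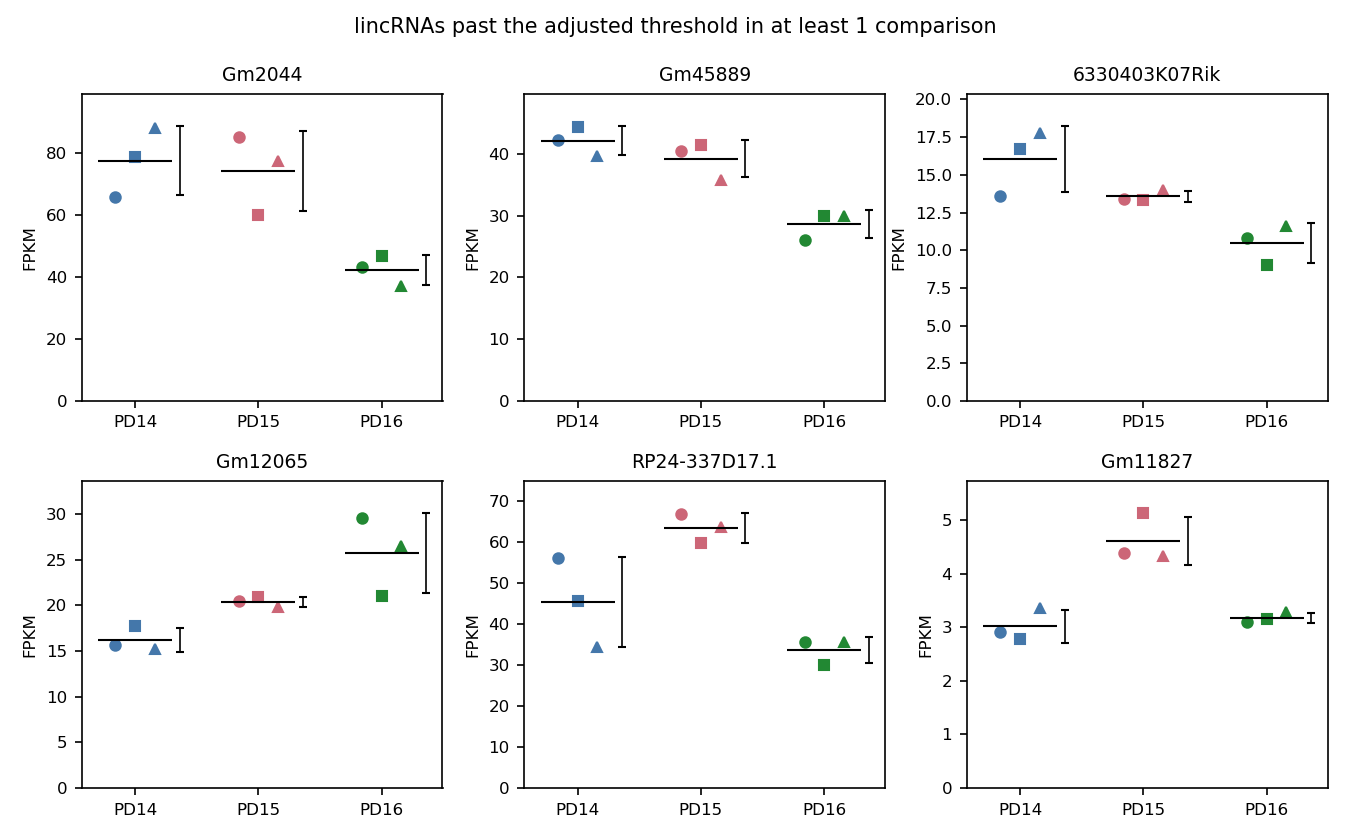
FPKM of the 6 lincRNAs that passed the adjusted threshold in at least 1 comparison, by day, with 1 symbol a library (circle, square and triangle for replicates 1, 2 and 3), a line at the mean and a bar of 1 SD. Gm2044, Gm45889 and 6330403K07Rik were lowest at PD16, Gm12065 was highest there, and RP24-337D17.1 and Gm11827 were highest at PD15.

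The F test over the 3 days called the same 6 members, adjusted p from 0.0216 for Gm45889 to 0.047 for 6330403K07Rik, where 3.03% of all genes tested passed. At an unadjusted p under 0.05, 35, 26 and 42 members differed from PD14 to PD15, PD14 to PD16 and PD15 to PD16 (21.3%, 15.9% and 25.6%), where 14.7%, 22.8% and 14.1% of all genes did. Of the 42 between PD15 and PD16, 29 were lower and 13 higher at PD16 (17.7% and 7.93%), where 7.34% and 6.78% of all genes were. In the F test 46 members (28%) had an unadjusted p under 0.05, against 22.3% of all genes. The libraries of PD15 and PD16 did not overlap in 48 members (29.3%), 34 of them (20.7% of the members) lower at PD16, compared with 19.6% and 9.73% of all genes. Between PD14 and PD15 the libraries did not overlap in 20.1% of the members and 20.6% of all genes, and between PD14 and PD16 in 18.3% of the members and 28.5% of all genes. The median change of the members from PD15 to PD16 was -0.05, and that of all genes 0.01. The mean of 70 members (42.7%) was highest at PD15, which was so for 27.3% of all genes tested.

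The summed level of the oocyte markers was also highest at PD15. It was 1300 to 1630 FPKM at PD14, 1710 to 1860 at PD15 and 1260 to 1350 at PD16. Of the 12 markers, 11 had a higher mean at PD15 than at PD14 (Nlrp5 called), and 12 were lower at PD16 than at PD15, with Nlrp5 and Zp2 called. From PD14 to PD16 the median change of these markers was -0.22. In that comparison 3 of the 12 had a change above 0, and 1 was called, higher at PD16. None of the 12 was at 0 in any library. RP24-337D17.1 and Gm11827 were likewise highest at PD15, and the part of the oocytes in their differences was not tested. The granulosa markers summed to 2860 to 3530 FPKM at PD14, 2670 to 3060 at PD15 and 2860 to 3350 at PD16, and from PD14 to PD16 1 of 10 was called higher, Amh, and 2 were called lower, Cyp19a1 and Kitl. The theca and interstitial markers summed to 1820 to 2450 FPKM at PD14, 1330 to 1960 at PD15 and 1340 to 1810 at PD16, with none of 9 called by limma (2, 3 and 1 at an unadjusted p under 0.05 in the 3 comparisons). The markers of blood cells, 8 in all, summed to 107 to 149 FPKM at PD14, 48.0 to 64.9 at PD15 and 62.8 to 118 at PD16. Of 6 tested, 1 was called lower from PD14 to PD15, where 4 had an unadjusted p under 0.05 by limma. The 9 markers of oviduct and surface epithelium summed to 60.6 to 69.4 FPKM at PD14, 54.3 to 61.9 at PD15 and 46.9 to 52.0 at PD16. From PD14 to PD16, 3 of 6 tested were called lower by limma, and 2 of the 6 had a change above 0. The levels of 6330403K07Rik, Gm45889 and Gm2044 were also lowest at PD16, and the part of these cells in them was not tested.

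**Figure D3:**
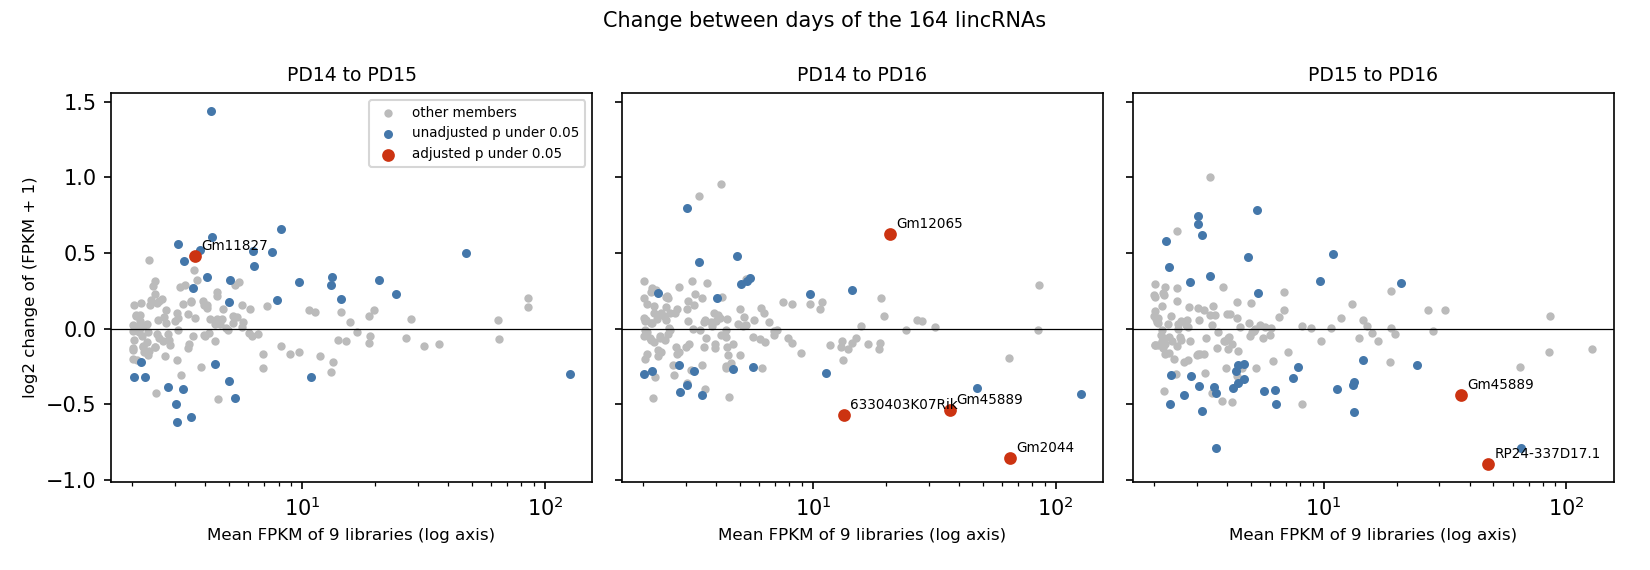
Change of each of the 164 lincRNAs on the log2(FPKM + 1) scale against its mean FPKM on a log axis, for each pair of days. Red points passed the adjusted threshold of 0.05 (1, 4 and 2 members) and blue points had an unadjusted p under 0.05 (35, 26 and 42 members with the red ones), of which 29 lay below 0 between PD15 and PD16.

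The 3 largest falls from PD14 to PD16 and the largest fall from PD15 to PD16 were among the calls above. Several other large fitted changes were in members of low and variable level and did not pass the test. Gm14267, a transcribed processed pseudogene in GENCODE M21, had the largest rise from PD14 to PD15, 1.44 with an SE of 0.52 (adjusted p = 0.245). Its PD14 libraries had 6.42, 0.754 and 0.325 FPKM, while PD15 had 5.66, 6.54 and 5.82 and PD16 2.99, 4.08 and 5.21. Thus 1 PD14 library was at the level of PD15, and the other 2 were far below it. Gm26526 had the largest rise from PD15 to PD16, 1.00 with an SE of 0.49 (adjusted p = 0.393), and ranged from 0.571 to 7.73 FPKM over the libraries. Gm45836, chosen after its values were seen, had 5.18, 4.21 and 0.00869 FPKM at PD14 and 0.744 to 3.70 FPKM on the later days.

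The remaining extremes were 2310040G24Rik (0.61) and 1700016F12Rik (0.66) among the rises from PD14 to PD15, E330017L17Rik (-0.62) and 1810044D09Rik (-0.50) among the falls there, and Gm10874 (-0.79) from PD15 to PD16. E330017L17Rik was also among the 3 largest rises from PD15 to PD16 (0.75). The adjusted p of these changes ran from 0.123 to 0.289. Gm10874 had 7.87, 3.51 and 3.61 FPKM at PD15 and 1.44, 3.07 and 2.60 at PD16, so that 1 PD15 library lay far above the others. Gm45650 stood closest to the threshold among these extremes. It had 4.82, 5.23 and 5.91 FPKM at PD14, 2.61, 4.88 and 3.55 at PD15, and 7.16, 6.82 and 6.71 at PD16, so that PD16 was above all others. Its change from PD15 to PD16 was 0.78 (SE 0.15, adjusted p = 0.0558). AI427809 was the second lowest in change from PD14 to PD15, at -0.58 (SE 0.14, adjusted p = 0.116). 5033430I15Rik, which starts 245 bases from Atxn1 on the opposite strand, had the third largest rise from PD14 to PD16, at 0.80 (SE 0.24, adjusted p = 0.0939), and passed without PD14 replicate 2.

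The members varied more between libraries of 1 day than coding genes of the same FPKM level. Transcript length and fragment count were not matched, and their part in this difference was not tested. The median within-day SD of log2(FPKM + 1) was 0.196 for 107 members of 2 to 5 FPKM, against 0.108 for coding genes of that level. From 5 to 20 FPKM it was 0.151 against 0.0913, and from 20 to 200 FPKM 0.147 against 0.0967. The highest library exceeded the lowest by a median factor of 1.73, by more than 2 in 46 members and by more than 3 in 11.

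Of the 8 members that carried a miRNA, Gm2044 alone passed the test, from PD14 to PD16, where 4.25% of all genes did. Mir17hg had 4.44, 5.28 and 4.68 FPKM at PD14, 5.05, 5.15 and 5.13 at PD15, and 5.54, 6.09 and 7.05 at PD16. The PD16 libraries were above all earlier ones, and the difference from PD14 was 0.31 (SE 0.08, adjusted p = 0.0696). The let-7 host 6720427I07Rik had means of 8.60, 7.91 and 7.99 FPKM, and its libraries overlapped between days. E130102H24Rik had means of 9.65, 8.55 and 10.9 FPKM and a change of 0.32 from PD15 to PD16 (adjusted p = 0.16). Gm27028, the Mir30c-2 host, had means of 1.76, 1.84 and 2.47 FPKM with SDs of 0.368 to 0.714. Gm6277, which holds Mir1901, had means of 2.60, 2.50 and 3.34 FPKM, and its change of 0.31 from PD15 to PD16 did not pass (adjusted p = 0.335).

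By limma none of the 7 members that carried a snoRNA or small Cajal body RNA passed the adjusted threshold, and 2 of them, Snhg12 and 2700038G22Rik, had an unadjusted p under 0.05 in at least 1 comparison, where 14.7%, 22.8% and 14.1% of all genes did in the 3 comparisons. Snhg12, which carries Snora44, Snora61, Snord99 and copies of Snora16a, had 10.8, 10.4 and 12.1 FPKM at PD14, 8.91, 8.48 and 8.73 at PD15, and 15.2, 10.4 and 12.8 at PD16. PD15 was below both other days, with a change of 0.50 to PD16 (SE 0.11, adjusted p = 0.0856). 2700038G22Rik, the host of Snord93, was named after its values were seen. It had 2.51, 3.48 and 2.56 FPKM at PD14, 2.86, 3.8 and 2.69 at PD15, and 4.11, 4.31 and 4.17 at PD16. The PD16 libraries were above all earlier ones, with a change of 0.44 from PD14 (SE 0.12, adjusted p = 0.0722) that passed without PD14 replicate 2. Snhg18 (32.5, 29.9 and 32.6 FPKM on the 3 days), Snhg6 (18.7, 20.5 and 20 FPKM) and Snhg20 (15.7, 14.7 and 14.9 FPKM), which holds a small Cajal body RNA and Mir6516, differed by at most 0.12 on the log2 scale in each comparison. Epb41l4aos had means of 66.1, 68.7 and 57.6 FPKM with SDs of 6.21 to 8.94, and its days overlapped, as did those of 2900076A07Rik, the host of Mir1839 (4.48, 4.23 and 4.44 FPKM). The Snord123 row, inside Snhg18, had means of 13.7, 17.5 and 22 FPKM, although its host stayed at the levels above, and its change of 0.65 from PD14 to PD16 did not pass (SE 0.19, adjusted p = 0.0886). Snord123 and Snhg18 lie on the same strand, so their reads cannot be told apart by strand. The row covers only 71 bases, and the level of the mature snoRNA is not given by these data.

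**Figure D4:**
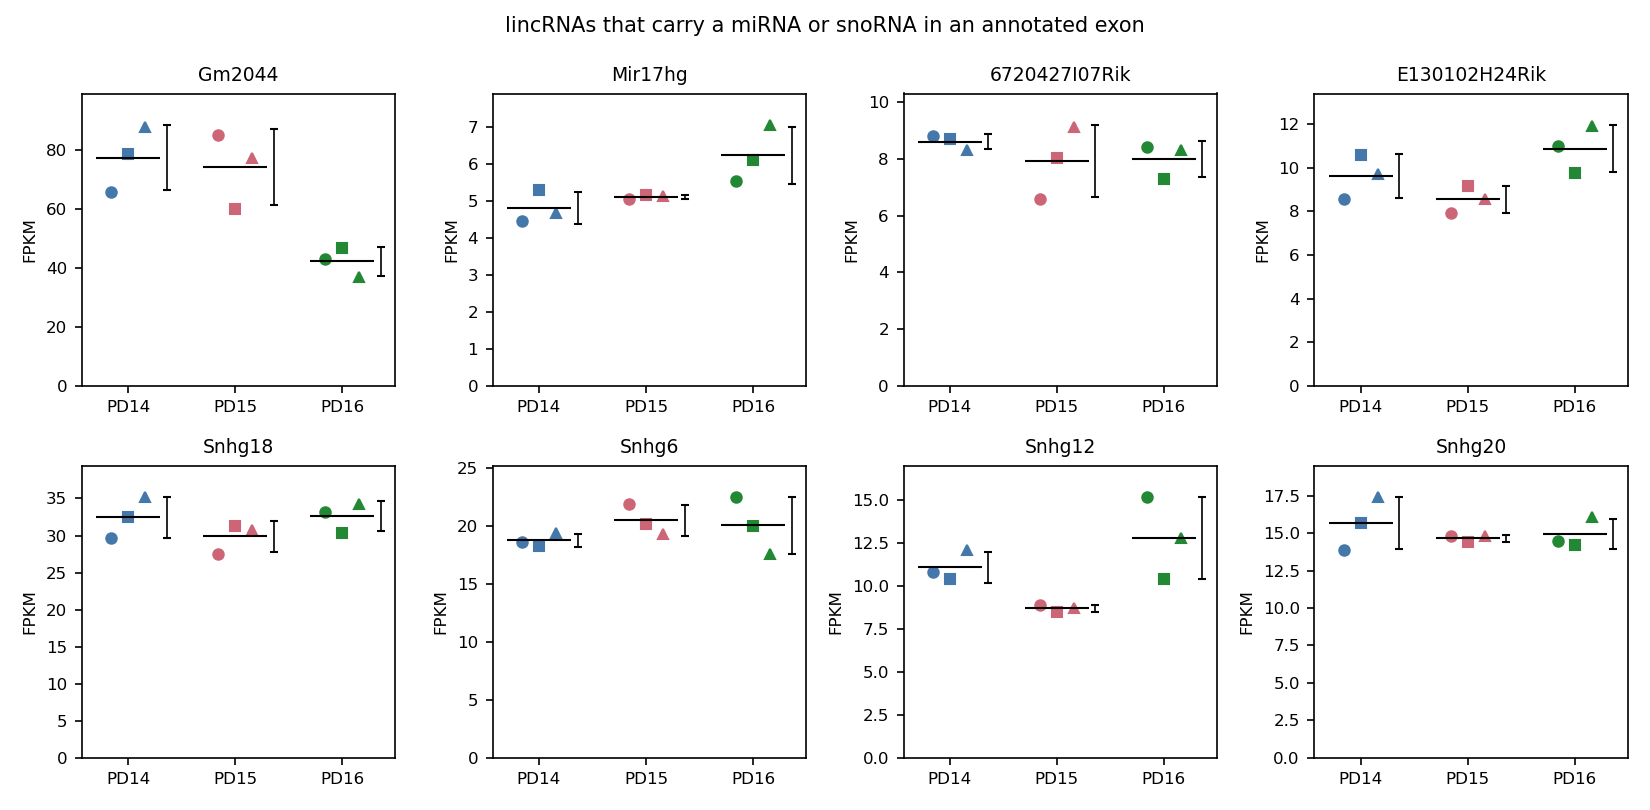
FPKM by day of 8 lincRNAs that carry a miRNA in an annotated exon (upper row) or a snoRNA or small Cajal body RNA within their span (lower row). The position in an exon was checked for the miRNAs only. Each library has 1 symbol (circle, square and triangle for replicates 1, 2 and 3), with a line at the mean and a bar of 1 SD. Gm2044 was lowest at PD16, Mir17hg was highest at PD16 and Snhg12 lowest at PD15.

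The nuclear RNAs did not pass the test between any days. Malat1 had 88.3, 97.4 and 59.6 FPKM at PD14, 103, 89.2 and 75.8 at PD15, and 60.1, 68.4 and 122 at PD16. The highest and nearly the lowest libraries were both of PD16. Neat1 had 1.86, 2.22 and 2.0 FPKM at PD14, 1.92, 1.85 and 1.49 at PD15, and 1.57, 1.70 and 3.61 at PD16. Xist had 77.1, 89.3 and 62.6 FPKM at PD14, 94.2, 81.9 and 85.5 at PD15, and 82.3, 90.0 and 107 at PD16. PD16 replicate 3 was the highest library of all 9 for each of these 3 RNAs, and PD14 replicate 3 was the lowest for Malat1 and Xist. Gm26917, from the same list of nuclear RNAs, had 11.2, 13.9 and 13.6 FPKM at PD14 and 14.0 to 16.7 FPKM on the later days, with a change of 0.26 from PD14 to PD16 (adjusted p = 0.117). Malat1 differed by -0.01 from PD14 to PD16 with an SE of 0.26 (adjusted p = 0.988), the widest error among the 5 most abundant members.

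**Figure D5:**
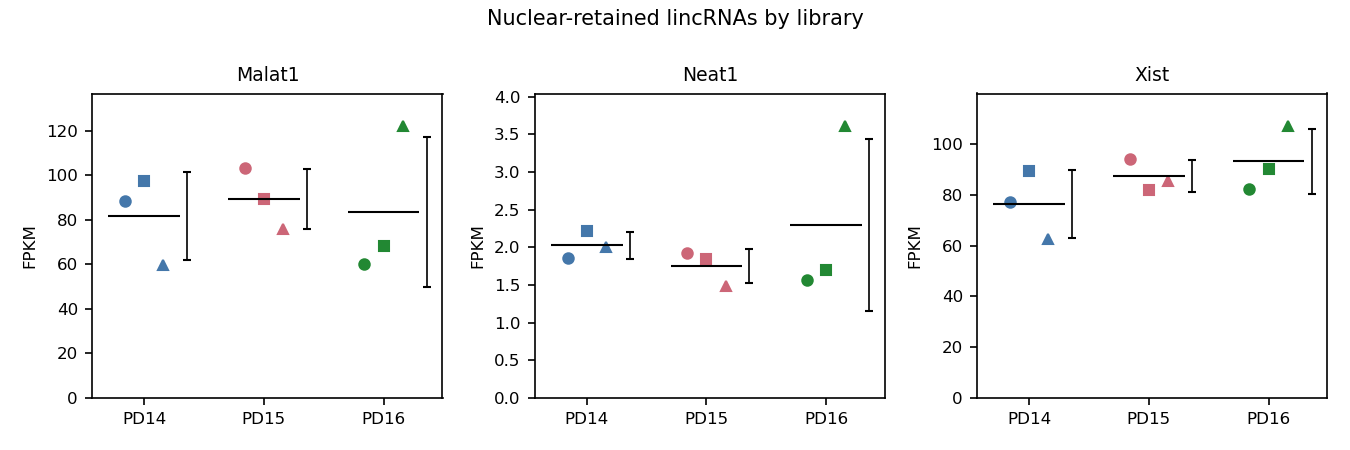
FPKM of Malat1, Neat1 and Xist by day, with 1 symbol a library (circle, square and triangle for replicates 1, 2 and 3), a line at the mean and a bar of 1 SD. The third PD16 library, drawn as a triangle, is the highest for each, at 122, 3.61 and 107 FPKM.

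Proteins that work with these RNAs mostly had small changes above 0 from PD14 to PD16, where 52.2% of all genes tested were above 0, 4.25% were called and 22.8% had an unadjusted p under 0.05. Of 17 paraspeckle proteins, 14 had a change above 0 from PD14 to PD16 and 3 were called, Sfpq (0.45, adjusted p = 0.0286), Rbm14 (0.34, adjusted p = 0.0375) and Tardbp (0.30, adjusted p = 0.0294). Sfpq, which binds Neat1, had means of 84.5, 101 and 116 FPKM. Of 17 snoRNA-binding proteins and assembly factors, 15 were above 0 and 2 were called, Nop56 (0.43, adjusted p = 0.0177) and Naf1 (0.28, adjusted p = 0.0469). By limma none of 17 nuclear speckle proteins was called, although 16 were above 0 and 7 had an unadjusted p under 0.05. None of 14 Xist partners or 15 nonsense-mediated decay factors was called (3 and 2 at an unadjusted p under 0.05, near or below the share of all genes). In these lists the medians were 0.10 (paraspeckle), 0.20 (snoRNA), 0.13 (speckle), 0.10 (Xist) and 0.04 (decay), against 0.01 over all genes. No gene of these lists was called in the other comparisons, where 0 to 5 genes a list had an unadjusted p under 0.05 (14.7% and 14.1% of all genes). None of the calls in these lists was left without PD14 replicate 1 or without PD16 replicate 1.

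The members were set beside other lincRNA rows in position and length, and no difference was tested. Of 160 members, 27 (16.9%) started within 1 kb of the start of a coding gene on the opposite strand. The same held for 10.1% of other lincRNA rows above 0 and 1.9% of rows at 0. Such members are called divergent here by the distance between starts alone, and some of them overlap their partner. An overlap with a coding gene was found in 15.0%, 14.4% and 6.7% of these 3 sets. Shortly downstream of a coding gene lay 5.6%, 4.4% and 1.2%. The median exon length was 1576 bases in members, 1269 in other expressed rows and 794 in rows at 0. Snhg18, 148 bases from the start of Sema5a, a semaphorin gene, was the most abundant of the divergent members. The coding partner had the higher mean FPKM in 21 of 26 pairs tested. Member and partner changed in the same direction in 14, 12 and 14 of 26 pairs in the 3 comparisons. By limma none of the 27 divergent members was called (4, 3 and 3 at an unadjusted p under 0.05), where 0.678%, 4.25% and 0.729% of all genes were. Of the partners limma called 1, Grasp, which was lower at PD16 than at PD14 (-0.40, SE 0.08, adjusted p = 0.034). A330009N23Rik, which overlaps Grasp on the opposite strand with starts 998 bases apart, had a change of 0.03.

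RefSeq promoter sequences were found for 74 of 164 members. The GC box letters GGGCGG, on either strand, were in 31.7% of the members' 82 promoters and in 35.7% of all mouse promoters in the table, and TATAAA in 9.76% against 13.6%. The cAMP response element letters TGACGTCA were in 5 of 82 (6.1%), compared with 1.79% of all. The letters CCAAT were in 36.6% against 37.4%, AAGGTCA in 4.88% against 4.72%, TAATTG in 9.76% against 8.0% and GTAAACA in 3.66% against 3.65%. The promoter of Gm45889 is shown because its fall from PD14 to PD16 was kept under each setting run, and it held none of these letters (GRCm38.p6, chr7:142282964-142283263, plus strand, 250 bases before to 50 after the start).
Gm45889: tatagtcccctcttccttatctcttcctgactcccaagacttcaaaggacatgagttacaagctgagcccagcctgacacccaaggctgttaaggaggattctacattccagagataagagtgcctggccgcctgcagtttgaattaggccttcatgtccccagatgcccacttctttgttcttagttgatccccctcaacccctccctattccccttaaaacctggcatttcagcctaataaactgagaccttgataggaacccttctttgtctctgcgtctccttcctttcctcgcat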

How the data were processed

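Total RNA of mouse ovary was extracted with TRIzol, and 1 library per sample (NEBNext Ultra kit) was run on an Illumina HiSeq. The submitters' processing notes name HISAT2 2.0.5 and mm10, and the authors deposited FPKM values, 1 table per library. The counter, the annotation release and the strand setting are not given in the sources used here. The figure legends describe 3 independent ovaries a day, and the p-values measure the spread between these libraries only.

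From the FPKM tables, genes with a mean above 1 on at least 1 day (15495) were tested on log2(FPKM + 1) with limma 3.58.1 (R 4.3.3, trend), with day as the factor and all 9 libraries in 1 model. P-values were adjusted by Benjamini-Hochberg over all genes tested. Changes are on that scale, which understates those of low genes. All 164 lincRNAs passed the filter because of their own rule. Depth was estimated from the smallest FPKM steps, and 96.1 to 96.9% of low values came out as whole fragments within 0.05. For single lincRNAs an exact permutation test over 280 groupings (two-sided) was added, and 3 against 3 libraries cannot go below 0.1. It used the same libraries as limma, so it is not separate support for a call. Loci are from GENCODE M21, which is on the same build as mm10 and held 160 of the 164, and miRNA and promoter sequences are from RefSeq GRCm38.p6. Figures were drawn with Python 3.11.15 and matplotlib 3.10.9. The fit was tested on simulated data. The members, lists and tests were chosen with earlier results of these data known. Named lincRNAs are those of known role, the 10 most abundant, those passing the threshold, the 3 largest rises and falls in each comparison and those beside the level threshold. Outside this rule, other hosts of a miRNA, snoRNA or small Cajal body RNA were named, as were Gm45836 and A330009N23Rik, the partner of Grasp. Alternatives were other pseudocounts, filters, scalings, variance settings, level thresholds, a replicate block and leaving out each library.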

Additional observations from a re-analysis of the deposited data

How the results depend on the processing

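Most counts of lincRNAs called rest on few members close to the threshold. A member's median fragment count was as low as 20, and the part of depth in the calls was not tested. Without a filter beyond a value above 0, limma called 0, 1 and 0 members from PD14 to PD15, PD14 to PD16 and PD15 to PD16 and 0 in the F test (31, 22, 38 and 41 at an unadjusted p under 0.05), with more genes tested. From PD14 to PD15, 0 were called with scaling to the total without the 10 most abundant genes, with only the 2 days in the fit, with the replicate block and above a level of 5 FPKM (28, 36, 32 and 17 unadjusted). The level of 5 FPKM left out Gm11827, with a mean of 3.61 FPKM, before any test. From PD14 to PD16, 8 were called among lincRNAs above 1 FPKM. From PD15 to PD16, 4 were called with a filter at 2 FPKM and 0 without the trend (41 unadjusted), and the cause was not tested. With each library left out the counts were 0 to 2, 1 to 5, 0 to 3 and 0 to 7 in that order. Gm45889 from PD14 to PD16 was called under each setting run. The same replicate numbers did not pair the libraries: 2 of 9 same-numbered pairs had a correlation of deviations over 0.1 (-0.21 to 0.16), and 2 of 9 libraries correlated best with their own number. The replicate block left 0, 2 and 1 calls in the 3 comparisons and 2 in the F test. The summed FPKM was 1279, 1345 and 1235.5 on the 3 days without AU020206, 1615, 1660.3 and 1527 for lincRNAs above 1 FPKM and 1103, 1130.1 and 1020.5 above 5 FPKM, which follows from the RNAs included. With median-ratio scaling the sums moved by less than 1 SD. No scaling moved the median of all genes by over 0.1, and no called change turned its direction.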
